A study of Homo sapiens with 6 samples.

Results

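Cells take up, reduce, export and count iron with a small set of proteins, and 10 genes of this set were followed here in the human mesothelioma cell line NCI-H226, grown as spheroids or as monolayers. The genes were chosen by name, with earlier results of these data known: the importers TFRC, SLC11A2 and SLC39A14, the reductases STEAP3 and STEAP4, the exporter SLC40A1 with CP and HAMP, and the regulators ACO1 and IREB2. All probe sets that the array annotation gives to these genes alone were read, which came to 26 of 54675 on the array, for 9 of the 10 genes. IREB2 was not analysed here, since the annotation used gives it no probe set.

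Spheroids were cultures of NCI-H226 cells in suspension plates coated with poly-HEMA, a polymer that prevents attachment, where 10000 cells per well were brought together by centrifugation and incubated for 24 hours with no added matrix. Monolayers were adherent cultures of the same line in RPMI 1640 with fetal bovine serum. There were 3 spheroid and 3 monolayer cultures, labelled as biological replicates, each on 1 Affymetrix U133 Plus 2.0 array. All 6 come from 1 established line, so the spread between arrays is the spread between cultures of that line. In bulk RNA, fewer cells that express a gene and less of its RNA per cell cannot be told apart, and a spheroid holds cells at its rim and at its core.

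In most cells iron arrives bound to transferrin, is carried inward by the transferrin receptor, is reduced in the endosome by a STEAP protein and leaves the endosome through SLC11A2. Iron that is not bound to transferrin can enter through SLC39A14, and ferroportin, encoded by SLC40A1, carries iron out of the cell. The iron regulatory proteins encoded by ACO1 and IREB2 bind iron-responsive elements in transcripts such as those of TFRC and the ferritins, so that much of the control of this system acts on transcript stability and translation.

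Signals are linear MAS5 values, and differences are given on the log2 scale after each array was centred on its median, as spheroids minus monolayers. A probe set was called where its limma p value, adjusted by Benjamini-Hochberg over all 54613 probe sets tested, was under 0.05. Array medians were 15.2 to 18.0 in spheroids and 14.6 to 14.7 in monolayers, and without centring all differences would lie 0.15 higher. Over all probe sets, 1519 were higher and 3630 lower in spheroids, against 2561 and 2863 without centring and 2455 and 2967 after quantile normalization. At an unadjusted p under 0.05, in either direction, there were 12292 of the 54613 by limma and 10731 by the methods' t-test, and unadjusted counts below are to be read beside these. The mesothelial markers WT1, MSLN and KRT7 had mean signals of 1886, 362 and 6110.4 in spheroids and 1548, 247 and 5268 in monolayers and did not pass the test. CALB2 (log2 2.49, adjusted p = 0.125) and THBD (-1.24, adjusted p = 0.109) differed in opposite directions without passing it, and 1 of 8 measured mesothelial markers, PDPN, was higher in spheroids. These results depended on monolayer 1. Without it 5 of the 8 were called higher, CALB2 among them (3.74, adjusted p = 0.000253 by limma), against 0 without any other single array. With the replicate number as a block in limma, CALB2 (adjusted p = 0.0160) and THBD (0.0109) were both called. Summed mesothelial signals were 12210 to 15559 in spheroids and 7159 to 14640.0 in monolayers. Among markers of other cell types, 0 of 6 leukocyte, 0 of 4 erythroid, 0 of 8 hepatocyte and 0 of 6 endothelial genes passed limma's test, with 2, 0, 1 and 1 at an unadjusted p under 0.05 by limma and 2, 0, 1 and 0 by the methods' t-test, and 1 of 7 fibroblast genes, PDGFRA, was higher. RNA integrity, read as the signal at the 3′ end of ACTB over that at its 5′ end, stood at 1.17 ± 0.0603 in spheroids and 1.09 ± 0.0123 in monolayers (SD, n = 3 each, exact two-sided permutation p = 0.1, the smallest that 3 arrays against 3 allow, 0.2 after adjustment over 2 controls). The same ratio of GAPDH was 0.901 ± 0.0121 in spheroids and 0.894 ± 0.0174 in monolayers (SD, n = 3 each, exact permutation p = 0.6). Their part in the results was not tested.

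The importers SLC11A2 and SLC39A14 and the regulator ACO1 were upregulated in spheroids, while the transferrin receptor TFRC, the reductases, the exporter and hepcidin were not called in either direction. Of the 26 probe sets, 7 were called, all higher (26.9%), where 9.43% of all probe sets tested were called and 2.78% were called higher. None was called lower by limma, where 6.65% of all were. At an unadjusted p under 0.05 limma had 8 higher and 1 lower and the methods' t-test 8 and 0. Of all 54613 probe sets, 12292 and 10731 were under 0.05 by these tests, in either direction. After adjustment the methods' t-test called 0 of the 26, as did limma without the mean-variance trend (9 higher and 0 lower unadjusted). The 7 called probe sets were 4 of the 5 for SLC11A2, 1 of the 3 for SLC39A14 and both for ACO1. All 7 lay among the 16 whose mean level was above the median of the array, and of the other 10, dim, probe sets none was called. Among all probe sets above the median level, tested alone, 6.9% were called higher. The median difference was 0.66 over the 26 probe sets and -0.08 over all probe sets tested. With each gene read by its brightest probe set, 3 of 9 genes were called, all higher, where 13.1% of 19775 genes were called and 3.88% were higher. The genes were not chosen blind to these data, so these shares only describe them.

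**Figure D1:**
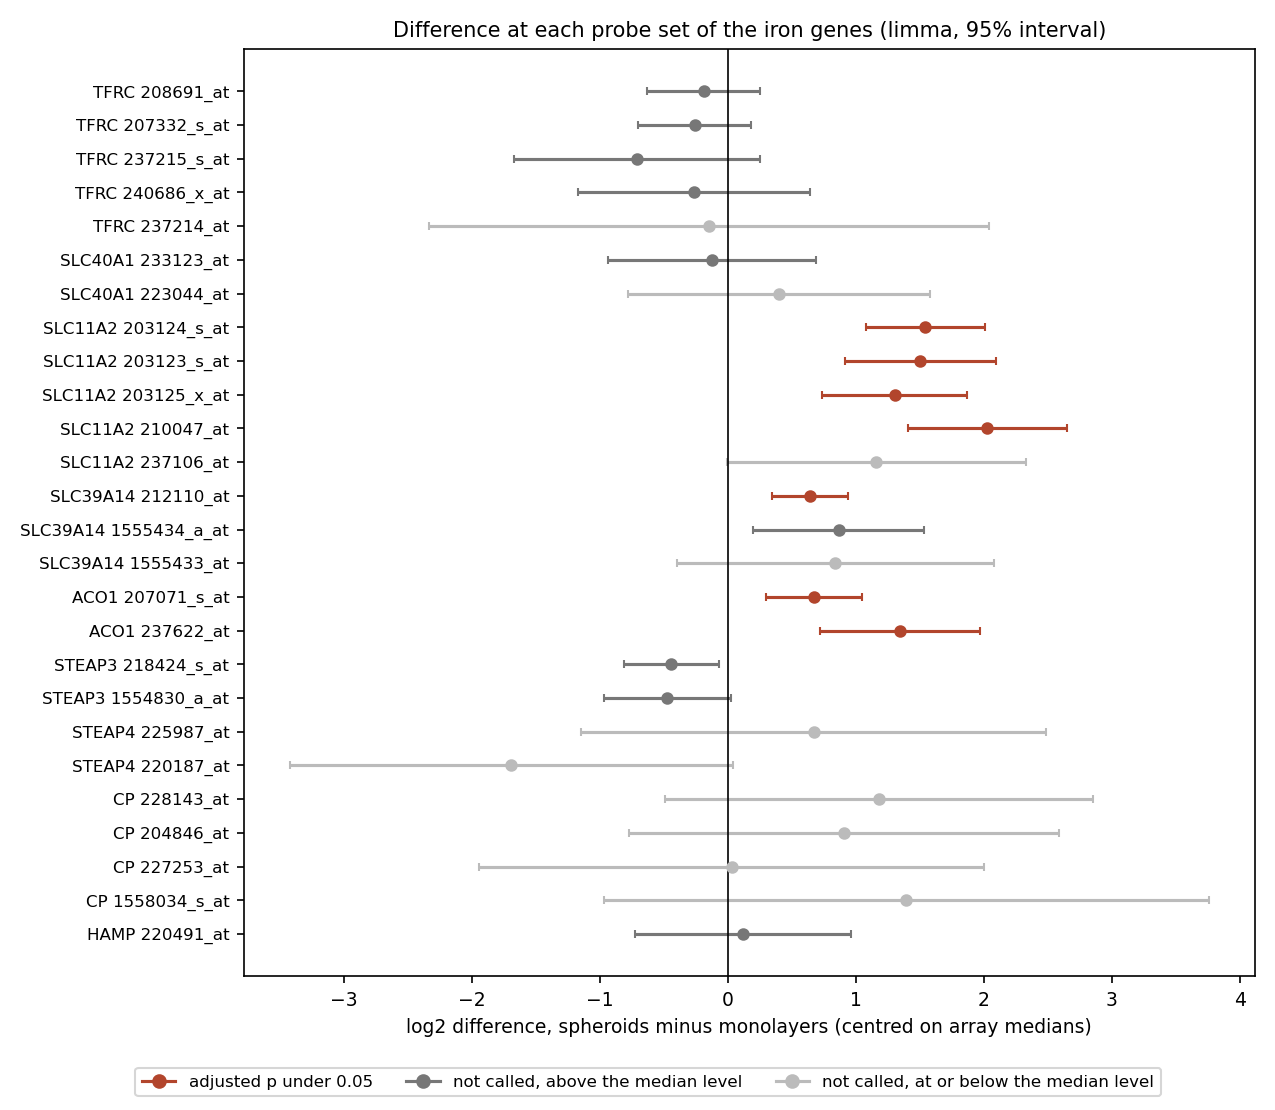
Difference between spheroids and monolayers at each of the 26 probe sets, on the log2 scale after centring (horizontal axis), with points for the limma estimate and bars for its 95% interval. The 7 called probe sets belong to SLC11A2, SLC39A14 and ACO1, and the intervals widen at the dim probe sets of STEAP4 and CP.

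SLC11A2, also called DMT1, carries ferrous iron across membranes, both at the cell surface and out of endosomes, and it held the 3 largest of the 7 called rises. At its brightest probe set, 203124_s_at, the signals were 805, 1159 and 1365 in spheroids, against 393, 325 and 299 in monolayers. Every spheroid array was above every monolayer array, and the means were 1109.9 ± 283 and 339 ± 48.4 (SD, n = 3 each). The difference was 1.54 (SE 0.21, 95% interval 1.08 to 2.01), a 2.91-fold rise with an adjusted p of 0.00259 by limma.

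A further pair of probe sets gave rises of similar size. At 203123_s_at the signals were 609.9, 808 and 909 in spheroids, against 367, 216 and 184 in monolayers. This was a 2.83-fold rise (log2 1.50, SE 0.26, adjusted p = 0.00823 by limma). At 203125_x_at they were 154, 202 and 282 in spheroids and 91.6, 71.6 and 65.7 in monolayers, a 2.47-fold rise (log2 1.30, SE 0.25, adjusted p = 0.0129). At these 3 probe sets spheroid 1 was the lowest spheroid array and monolayer 1 the highest monolayer array, so the groups lay closest there without overlapping. The name of 203125_x_at ends in x, the maker's mark for probes that may also match other transcripts, and its call was lost without monolayer 2 (log2 1.27, adjusted p = 0.0545) and without monolayer 3 (log2 1.20, adjusted p = 0.0531).

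The SLC11A2 probe set 210047_at had the largest rise of the 7. Its signals were 139, 172 and 133 in spheroids, against 48.1, 32.7 and 22.0 in monolayers. The means were 148 ± 21.4 and 34.3 ± 13.1 (SD, n = 3 each), a 4.08-fold rise (log2 2.03, SE 0.27, 95% interval 1.41 to 2.65, adjusted p = 0.00273 by limma). The dim probe set 237106_at did not pass the test, with 13.0, 9.66 and 7.51 in spheroids and 5.15, 4.05 and 3.00 in monolayers (log2 1.16, adjusted p = 0.224), although its groups did not overlap. After centring, groups that did not overlap were found at 11 of the 26 probe sets and at 27.8% of all probe sets tested, and those higher in spheroids at 9 and at 10.2%. Without both arrays numbered 1, an alternative chosen after seeing the data, the rises at 203124_s_at, 203123_s_at and 210047_at were 1.84, 1.93 and 2.32 on the log2 scale, all called.

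**Figure D2:**
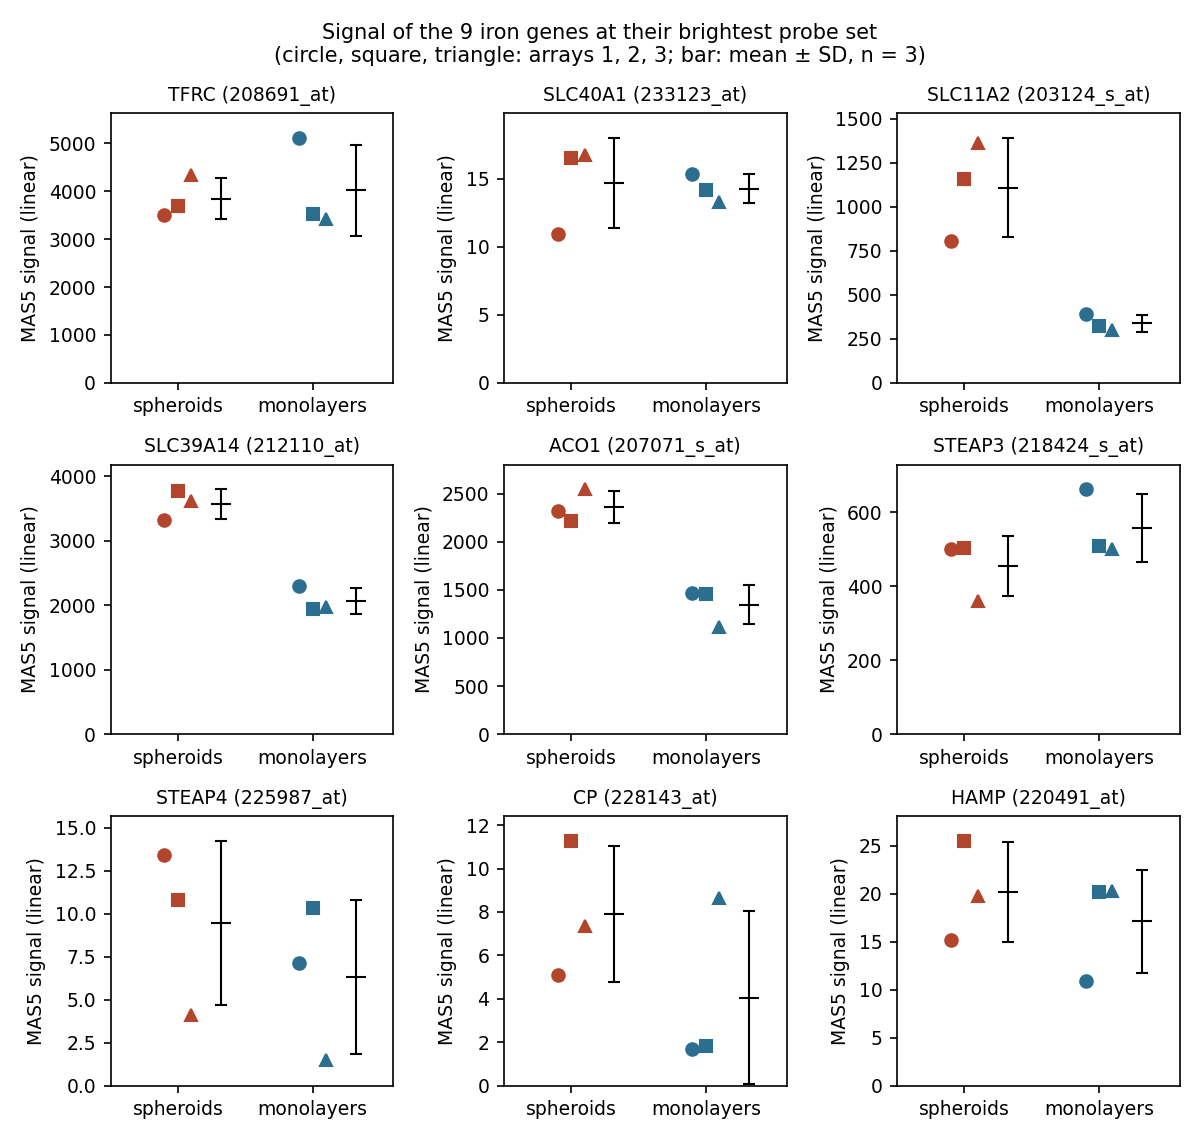
MAS5 signal (vertical axis, linear, starting at 0) of the 9 genes at their brightest probe set, in spheroids (left) and monolayers (right), with circles, squares and triangles for arrays 1, 2 and 3 and bars for mean ± SD. The groups lie apart for SLC11A2, SLC39A14 and ACO1 and overlap for TFRC, SLC40A1, STEAP4, CP and HAMP, and for STEAP3 the highest spheroid array, 504, is above the lowest monolayer array, 501.

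SLC11A2 lies at chr12:50952263-51028886 (GRCh38.p14, minus strand), and RefSeq gives it 4 start sites. The sequences before the start sites are shown because 8 of 11 hypoxia targets were called higher in the same spheroids. The part of hypoxia in the values of SLC11A2 was not tested. They were searched on both strands for ACGTG and GCGTG, the core letters at which hypoxia-inducible factors bind, which read CACGT and CACGC on the other strand and overlap each other in CACGTG. Of 35116 windows of 250 bases before RefSeq start sites, 43.2% hold at least 1 match. Of the 10 genes, 8 have a window, 12 in all, of which 5 hold a match, a share close to that of all windows. Of the 4 windows of SLC11A2, 2 hold none, 1 holds 3 matches (chr12:51026385-51026634, the nearest at position -91) and 1 holds 1 match (chr12:51028243-51028492, at -137), counted back from -1 just before the start. Both are printed 5′ to 3′ on the minus strand with the matches in capitals.
SLC11A2 window with 3 matches: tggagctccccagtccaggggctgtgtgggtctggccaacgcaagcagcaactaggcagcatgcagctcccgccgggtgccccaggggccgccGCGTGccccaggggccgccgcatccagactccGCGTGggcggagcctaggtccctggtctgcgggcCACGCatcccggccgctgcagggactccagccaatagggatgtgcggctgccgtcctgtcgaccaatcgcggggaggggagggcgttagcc
SLC11A2 window with 1 match: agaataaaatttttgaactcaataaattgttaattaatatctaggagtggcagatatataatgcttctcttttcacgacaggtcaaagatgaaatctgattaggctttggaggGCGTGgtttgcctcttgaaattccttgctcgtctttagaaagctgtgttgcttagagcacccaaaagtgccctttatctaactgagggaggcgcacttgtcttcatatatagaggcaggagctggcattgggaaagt
A match describes letters only, and whether a factor binds there was not tested.

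SLC39A14, or ZIP14, imports iron that is not bound to transferrin, together with zinc and manganese. Its brightest probe set, 212110_at, had signals of 3325, 3773 and 3614 in spheroids, against 2304, 1946 and 1965 in monolayers. The lowest spheroid array was above the highest monolayer array, with means of 3571 ± 227 and 2072 ± 202 (SD, n = 3 each). The rise was 1.56-fold (log2 0.64, SE 0.13, 95% interval 0.34 to 0.94, adjusted p = 0.0173 by limma). The call was lost without spheroid 1 (0.66, adjusted p = 0.0528), spheroid 3 (0.59, 0.0617), monolayer 2 (0.60, 0.104) or monolayer 3 (0.60, 0.0962), while the difference stayed between 0.59 and 0.72 when any 1 array was left out.

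The dimmer SLC39A14 probe set 1555434_a_at had 52.7, 50.8 and 67.2 in spheroids and 38.0, 28.1 and 20.6 in monolayers. Its groups were apart, but the difference of 0.87 (SE 0.30) had an adjusted p of 0.111 by limma and was not called. Without monolayer 1, the highest array of its group, the difference was 1.09 and was called (adjusted p = 0.036). At 1555433_at the groups overlapped, with 6.94 to 19.3 in spheroids and 4.28 to 10.2 in monolayers (log2 0.84, adjusted p = 0.431).

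TFRC encodes the transferrin receptor, whose transcript carries iron-responsive elements that the iron regulatory proteins bind and protect when iron is low. At 208691_at the signals were 3506, 3699 and 4334 in spheroids, against 5116, 3515 and 3424 in monolayers. The groups overlapped, with monolayer 1 above all spheroid arrays and the other monolayer arrays within or below them. The means were 3846 ± 433 and 4018 ± 951 (SD, n = 3 each), and the difference of -0.19 (SE 0.20, adjusted p = 0.649 by limma) had a 95% interval of -0.63 to 0.25.

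The second TFRC probe set, 207332_s_at, likewise had monolayer 1 above all spheroid arrays. Its signals were 2353, 2583 and 3013 in spheroids, against 3704, 2584 and 2433 in monolayers (log2 -0.26, 95% interval -0.70 to 0.18, adjusted p = 0.504 by limma). At 237215_s_at the signal of monolayer 1, 85.0, stood above the other 5 arrays, which lay at 23.4, 28.0 and 34.4 in spheroids and 29.3 and 29.1 in monolayers (log2 -0.71, adjusted p = 0.385). Without monolayer 1 the differences were -0.0021 at 208691_at and -0.19 at 237215_s_at, and without both arrays numbered 1 the first was 0.032. The remaining TFRC probe sets, 240686_x_at and 237214_at, had signals of 1.04 to 22.2 in spheroids and 1.26 to 23.1 in monolayers and differences of -0.26 and -0.15, neither called. The intervals of the brighter pair leave room for a fall of up to 0.70 and a rise of up to 0.25 on the log2 scale.

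TFRC lies at chr3:196049284-196082090 (GRCh38.p14, minus strand). Its RefSeq promoter window, chr3:196082091-196082340, is shown beside those of SLC11A2 because it also holds a match, ACGTG at position -88, in a gene that was not called. It is printed 5′ to 3′ on the minus strand with the match in capitals.
TFRC window: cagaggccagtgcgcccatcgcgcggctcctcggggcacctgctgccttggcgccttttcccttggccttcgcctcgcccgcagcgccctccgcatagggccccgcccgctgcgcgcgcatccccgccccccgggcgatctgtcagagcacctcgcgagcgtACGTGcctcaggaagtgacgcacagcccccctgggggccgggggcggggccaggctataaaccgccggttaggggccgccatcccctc

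ACO1 encodes iron regulatory protein 1, which is cytosolic aconitase when it holds an iron-sulfur cluster and binds iron-responsive elements when it does not. The array reads its transcript and not which of these forms the protein takes. At 207071_s_at the signals were 2321, 2219 and 2545 in spheroids, against 1466, 1457 and 1117 in monolayers. The groups were apart, with means of 2362 ± 167 and 1347 ± 199 (SD, n = 3 each), and the rise was 1.59-fold (log2 0.67, SE 0.17, 95% interval 0.30 to 1.05, adjusted p = 0.0365 by limma).

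At the dimmer ACO1 probe set, 237622_at, the signals were 74.2, 63.7 and 56.6 in spheroids, against 24.7, 29.1 and 16.8 in monolayers. The rise was 2.54-fold (log2 1.34, SE 0.28, 95% interval 0.72 to 1.97, adjusted p = 0.0173 by limma), and again no spheroid array was as low as a monolayer array. Both calls depended on single arrays. The call at 207071_s_at was lost without spheroid 1 (0.66, adjusted p = 0.107), spheroid 3 (0.57, 0.123), monolayer 2 (0.74, 0.0923) or monolayer 3 (0.54, 0.151), and that at 237622_at without any 1 spheroid array (1.21 to 1.43) or monolayer 3 (1.12, 0.0549).

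ACO1 lies at chr9:32384643-32454769 (GRCh38.p14, plus strand). Its RefSeq promoter window, chr9:32384393-32384642, holds 1 match, GCGTG at position -5, and is shown because ACO1 was upregulated. It is printed 5′ to 3′ on the plus strand with the match in capitals.
ACO1 window: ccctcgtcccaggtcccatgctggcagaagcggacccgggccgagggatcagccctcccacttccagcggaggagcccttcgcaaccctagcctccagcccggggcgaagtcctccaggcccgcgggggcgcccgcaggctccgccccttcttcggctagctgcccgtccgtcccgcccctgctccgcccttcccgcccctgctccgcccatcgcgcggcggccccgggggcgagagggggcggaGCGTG

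The STEAP proteins reduce ferric to ferrous iron, STEAP3 (chr2:119223834-119265652, GRCh38.p14) in the endosomes that carry transferrin. At 218424_s_at STEAP3 had 501, 504 and 361 in spheroids, against 662, 508 and 501 in monolayers. As deposited the groups overlapped, and after centring every spheroid array was below every monolayer array. The difference was -0.44 (SE 0.17, 95% interval -0.82 to -0.07), with an adjusted p of 0.148 by limma, and it was not called. It was the 1 probe set of the 26 that was lower at an unadjusted p under 0.05. At 1554830_a_at the signals were 47.6, 71.1 and 47.2 in spheroids and 85.7, 61.1 and 60.6 in monolayers (log2 -0.48, 95% interval -0.97 to 0.02, adjusted p = 0.242). Groups that lay apart after centring and lower in spheroids, as at these 2 probe sets of STEAP3, were found at 17.6% of all probe sets tested.

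STEAP4 (chr7:88270892-88306894), a reductase of the same family, was dim on every array. At 225987_at it had 13.4, 10.8 and 4.14 in spheroids and 7.12, 10.4 and 1.50 in monolayers (log2 0.67, adjusted p = 0.704 by limma). At 220187_at it had 3.04, 1.13 and 7.27 in spheroids and 6.67, 8.38 and 11.2 in monolayers (log2 -1.69, 95% interval -3.42 to 0.04, adjusted p = 0.232). The probe sets differed in sign and both intervals spanned 0, so no direction can be given for STEAP4.

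Iron export was read through SLC40A1 (chr2:189560590-189580786), which encodes ferroportin, CP (chr3:149162414-149221829), the ferroxidase that oxidizes exported iron for loading onto transferrin, and HAMP (chr19:35282528-35285143), which encodes hepcidin, the peptide hormone that makes ferroportin be degraded. SLC40A1 had 10.9, 16.5 and 16.7 in spheroids and 15.4, 14.2 and 13.3 in monolayers at 233123_at (log2 -0.13, 95% interval -0.94 to 0.68, adjusted p = 0.890 by limma). At 223044_at it had 5.17, 12.4 and 12.5 in spheroids and 7.41, 6.86 and 5.12 in monolayers (log2 0.40, adjusted p = 0.732). Both pairs of groups overlapped, and the sign at 233123_at turned without centring (0.020) and without spheroid 1 (0.047). Mean levels of SLC40A1 were low, at percentiles 50.5 and 38.0 of all probe sets tested. The lack of a call is therefore not a measured lack of change.

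HAMP, whose main source in the body is the liver, had 15.2, 25.5 and 19.8 in spheroids and 10.9, 20.2 and 20.3 in monolayers (log2 0.11, 95% interval -0.73 to 0.96, adjusted p = 0.905 by limma), with the groups overlapping. Summed signals of 8 hepatocyte markers were 181 to 438 in spheroids and 84.6 to 209 in monolayers, with none called, and their part in the HAMP signal was not tested. The highest sum of each group, in spheroid 1 and monolayer 1, was mostly the signal of APOA1, at 325 and 132. All 4 probe sets of CP lay below the median level, at 0.69 to 11.3 in spheroids and 0.708 to 9.02 in monolayers. Their differences were 1.18, 0.90, 0.03 and 1.39, with adjusted p values of 0.409 to 0.991, and the groups overlapped at each. The widest interval of the 4, -0.97 to 3.76 at 1558034_s_at, leaves a rise of several fold undetectable with 3 arrays a group. Without both arrays numbered 1 that probe set was called higher (log2 3.16, adjusted p = 0.0397).

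**Figure D3:**
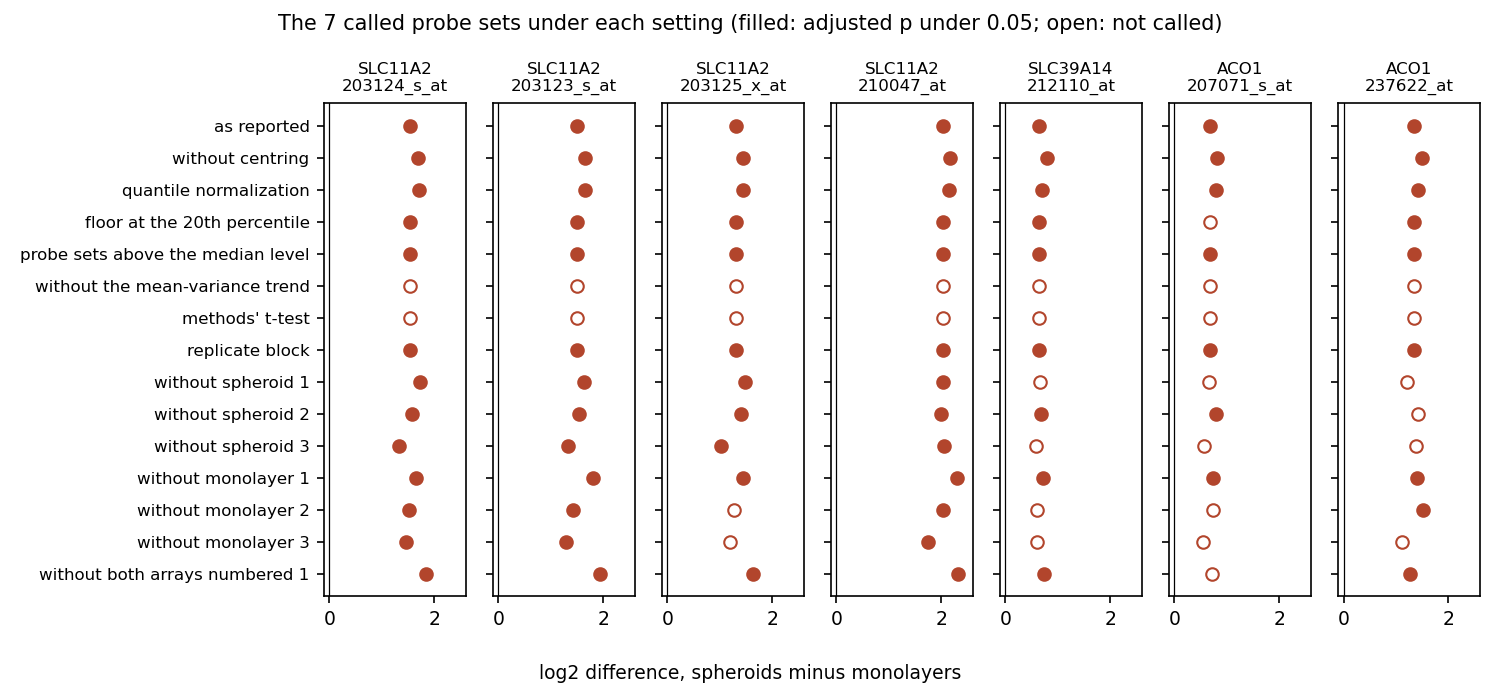
Log2 difference, spheroids minus monolayers, of the 7 called probe sets (1 panel each) as reported and under 14 alternative settings, filled where the adjusted p was under 0.05 and open where it was not. All 98 values are above 0, 68 of them called, and none is called without the mean-variance trend or by the methods' t-test.

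The genes around these 10 were read from lists of the same pathway, each gene by its brightest probe set with 1 gene symbol. Together with the 9 genes, 86 of 96 listed genes were measured, of which 10 were called higher and 7 lower in spheroids, against 3.88% of all 19775 genes higher and 9.22% lower. The same shares of all genes are to be set beside the counts of each list below. Without centring 17 were higher and 6 lower, and after quantile normalization 15 and 6.

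Other iron carriers and importers had 2 of 10 genes called, both higher, with a median difference of 0.54 beside -0.06 for all genes. LCN2, which binds siderophores that hold iron, had the largest difference of any listed iron gene, with signals of 1262, 1486 and 1392 in spheroids, against 54.4, 87.6 and 61.7 in monolayers. This was an 18.7-fold rise (log2 4.23, SE 0.19, adjusted p = 4.92e-05 by limma), and LCN2 was called under every alternative run. SLC39A8, or ZIP8, the closest relative of SLC39A14, had 2695, 2669 and 3329 in spheroids and 1539, 773 and 803 in monolayers (log2 1.40, SE 0.27, adjusted p = 0.0121). Its call was lost without spheroid 3 (1.25), monolayer 2 (1.23) or monolayer 3 (1.25). SLC39A8 was also not called by the methods' t-test or by limma without the mean-variance trend.

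Of 7 other reductases and ferroxidases, 1 was called, and it was higher, with a median of 0.55, and 4 were higher at an unadjusted p under 0.05. STEAP2, a reductase related to STEAP3 and STEAP4, had 27.6, 65.3 and 86.1 in spheroids and 12.7, 5.43 and 8.66 in monolayers (log2 2.53, SE 0.49, adjusted p = 0.0131 by limma), a call lost without spheroid 2 (2.46) or spheroid 3 (2.14). The methods' t-test and limma without the mean-variance trend each called 0 of these 7 genes. CYBRD1, the reductase that works beside SLC11A2 in the gut, had 3455, 3146 and 3268 in spheroids and 2887, 1838 and 1563 in monolayers. It was not called with all arrays (log2 0.55, adjusted p = 0.178) and was called without monolayer 1 (0.81, adjusted p = 0.0138). Its other probe set, 217889_s_at, had overlapping groups, at 388 to 475 in spheroids and 323 to 528 in monolayers (-0.023, adjusted p = 0.969).

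Iron storage and the turnover of ferritin showed no call among 6 measured genes by limma after centring, with 0 at an unadjusted p under 0.05 by limma and 0 by the methods' t-test. This depended on the centring. Without it 1 of the 6 was called higher, with 4 higher and 0 lower at an unadjusted p under 0.05. After quantile normalization 1 was called higher, with 2 higher and 1 lower unadjusted. FTL, the light chain of ferritin, had 5927, 6073 and 5655 in spheroids and 5291, 4999 and 4728 in monolayers, and the difference after centring was 0.09 (95% interval -0.20 to 0.38, adjusted p = 0.763). The 4 measured genes of the list of other transcripts with an iron-responsive element had no call either, with 0 by both measures and a median of 0.08.

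Genes of mitochondrial iron and iron-sulfur clusters were the only iron list here with more genes called lower than higher, 5 against 1 of 17, with a median of -0.35 and 10 lower at an unadjusted p under 0.05. The methods' t-test called 1 lower and 1 higher, limma without the mean-variance trend called 0 (6 lower and 1 higher unadjusted), and with 1 array left out 2 to 5 were lower, 2 without monolayer 2 or monolayer 3 and 3 without spheroid 2, spheroid 3 or monolayer 1. The 1 higher gene was SLC25A37, mitoferrin 1, which brings iron into mitochondria, with 1490.3, 1569.7 and 1672 in spheroids and 567, 626 and 656 in monolayers (log2 1.21, SE 0.14, adjusted p = 0.00126 by limma). CIAO1, of the machinery that places iron-sulfur clusters on cytosolic proteins, had 264, 245 and 333 in spheroids and 695, 699 and 667 in monolayers (log2 -1.45, SE 0.18, adjusted p = 0.00177). BOLA3 and GLRX5, which act in the mitochondrial assembly of such clusters, differed by -0.83 and -0.78 (adjusted p = 0.00415 and 0.0105), and the call of GLRX5 was lost without monolayer 2 (-0.73) or monolayer 3 (-0.75). NFS1 and CIAPIN1 made up the 5, at -0.54 and -0.55, with adjusted p values of 0.0469 and 0.0488. The calls of NFS1 and of CIAPIN1 at this probe set were lost when any 1 array except spheroid 1 was left out (-0.57 to -0.43 for NFS1 and -0.60 to -0.42 for CIAPIN1), and that of NFS1 also without centring (-0.39, adjusted p = 0.0583) and after quantile normalization (-0.36). With a floor at the 20th percentile the call of CIAPIN1 was lost too (-0.55, adjusted p = 0.0569 by limma).

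Heme handling had 2 of 17 genes higher and 1 lower, LRP1 (1.01), FLVCR2 (1.73) and HMOX2 (-0.68), with adjusted p values of 0.0196, 0.0271 and 0.0340 by limma. HMOX2, the constitutive heme oxygenase, was not called without centring (-0.53, adjusted p = 0.0661) or after quantile normalization (-0.52). Each of the 3 lost its call when single arrays were left out, LRP1 without spheroid 2 (0.93), spheroid 3 (1.02) or monolayer 3 (0.90), and FLVCR2 and HMOX2 without any 1 array except monolayer 1, at 1.44 to 1.77 and -0.71 to -0.56. The methods' t-test and limma without the mean-variance trend each called 0 of the 17. HMOX1, the inducible heme oxygenase that releases iron from heme, varied within both groups, with 221, 366 and 594 in spheroids and 88.8, 301 and 452 in monolayers (log2 0.52, adjusted p = 0.665), and its sign turned without monolayer 1 (-0.16).

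Of 16 regulators of hepcidin, 1 was called higher and 1 lower, where 3.88% of all genes were higher and 9.22% lower. At an unadjusted p under 0.05 by limma 5 were higher and 2 lower. Without centring 5 were called higher and 1 lower, and after quantile normalization 4 and 1. IL6, the cytokine that induces hepcidin in hepatocytes, had 746, 1553 and 2799.5 in spheroids and 86.0, 219.9 and 189.8 in monolayers, an 8.74-fold rise (log2 3.13, SE 0.48, adjusted p = 0.00487 by limma), while HAMP itself was not called. ID1, a target of BMP signaling, was lower (-0.68, adjusted p = 0.0214), a call lost without spheroid 1 (-0.68), monolayer 2 (-0.73) or monolayer 3 (-0.69). Other listed genes of that signaling went both ways without a call, BMP2 (0.84), ACVR1 (0.41), SMAD1 (0.40), SMAD4 (-0.14) and SMAD5 (-0.06) among them. The methods' t-test and limma without the mean-variance trend each called 0 of the 16 regulators.

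**Figure D4:**
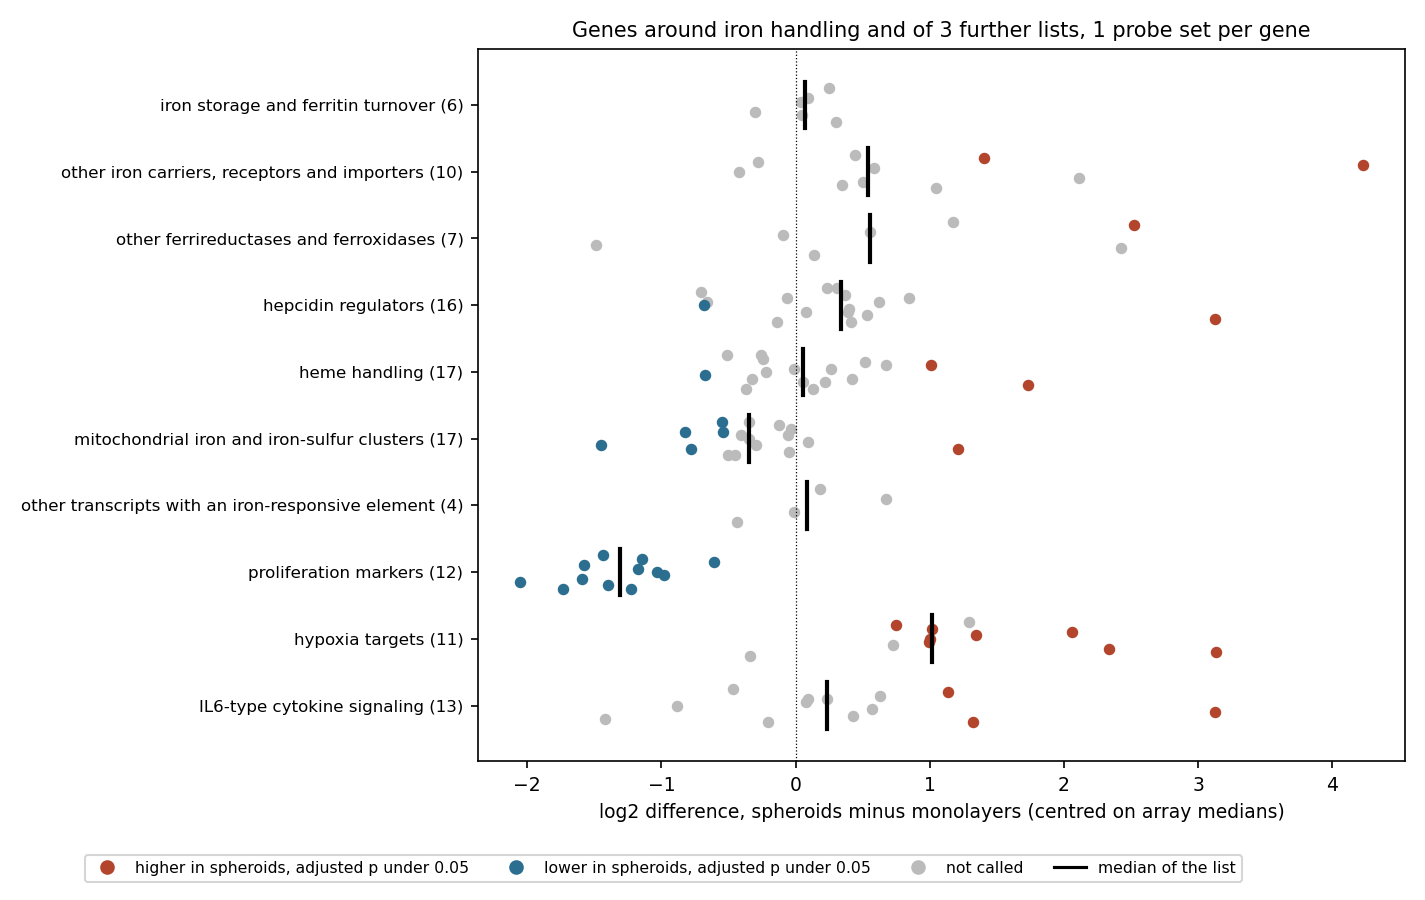
Log2 difference, spheroids minus monolayers (horizontal axis), of each measured gene of 7 lists around iron and of 3 lists of other processes, with red for genes called higher in spheroids, blue for lower, grey for not called, and a black bar at the list's median. LCN2 stands at 4.23, the list of mitochondrial iron and iron-sulfur clusters has its median at -0.35, and all 12 proliferation markers lie below 0.

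Lists of proliferation markers, hypoxia targets and IL6-type signaling were read beside the iron genes. All 12 proliferation markers were lower in spheroids, with a median of -1.31 and summed signals of 6641 to 9306 in spheroids and 16025 to 18744 in monolayers, among them CDK1 (-2.05), AURKA (-1.74), BUB1 (-1.59), AURKB (-1.58) and MKI67 (-1.40). Of 11 targets of hypoxia-inducible factors, 8 were called, all higher, with a median of 1.02 and summed signals of 12587 to 15244 in spheroids and 7781 to 8302 in monolayers, among them PFKFB4 (3.13), NDRG1 (2.34), ANKRD37 (2.06) and KDM3A (1.35). ADM, another target, went the other way without a call (-0.34, unadjusted p = 0.0307 and adjusted p = 0.165 by limma), with its groups apart and lower in spheroids. Of 13 genes of IL6-type signaling, 3 were called, all higher, IL6, CEBPD (1.32) and LIF (1.13). The call of LIF was lost without spheroid 2 (1.12), spheroid 3 (0.88), monolayer 2 (1.16) or monolayer 3 (1.05). The 10 not called went both ways, OSMR (0.63), PIM1 (0.57), SOCS3 (-0.20), IL6R (-0.47) and OSM (-1.42) among them. At an unadjusted p under 0.05 by limma, 5 of the 13 were higher and 1 lower. After adjustment the methods' t-test called 5 of 12 proliferation markers, 0 of 11 hypoxia targets and 0 of 13 genes of IL6-type signaling (12, 9 and 4 at an unadjusted p under 0.05), and limma without the mean-variance trend called 4, 1 and 0 (12, 10 and 4 unadjusted), so that MKI67 and IL6 were called by neither. The part of any of these in the values of SLC11A2, SLC39A14 and ACO1 was not tested.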

How the data were processed

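RNA of the cell line NCI-H226 was measured in 3 spheroid and 3 monolayer cultures, 1 array each, grouped by their labels. Deposited values are linear signal intensities, which the authors computed with MAS5, and every array has a mean of 150.0 once 2% is trimmed at each end. The methods also name a normalization to the median in Genespring, but the medians of the deposited arrays differ. Detection calls were not used, so signal over background is unknown, and precision is limited by having 3 arrays a group. The methods' Western blots were not analysed here.

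After 62 control probe sets were left out, log2 signals were centred on each array's median and 54613 probe sets were compared with limma 3.58.1 in R 4.3.3 (mean-variance trend, no floor, filter or pseudocount), with Benjamini-Hochberg adjustment over all of them and a threshold of 0.05. The scripts were tested on simulated data. Gene names come from GEO's platform annotation, which gives 1 symbol to 41097 probe sets, several to 1801 and none to 11777, with symbols updated and sequences taken from RefSeq (GRCh38.p14). Only probe sets with 1 symbol were read as members, and no probe set with several symbols names any of the 10 genes. FTH1 has no probe set with 1 symbol and was not read. Named are all probe sets of the 10 genes, the called genes of each list by smallest adjusted p (at most 4), and FTL, CYBRD1, HMOX1, IL6 and MKI67. NFS1, CIAPIN1, PDPN and PDGFRA and the mesothelial markers, SOCS3, IL6R, OSM and ADM fall outside this rule and were picked with their values in view. So were OSMR, PIM1, BMP2, ACVR1, SMAD1, SMAD4, SMAD5 and APOA1. The genes and lists were chosen with earlier results of these data known. Alternatives were quantile normalization, no centring, signals raised to the 20th percentile, probe sets above the median level, a replicate block, the methods' t-test on these log2 values, limma with no trend, each array left out and, for the lists, the second brightest probe set of a gene. Leaving out both arrays numbered 1 was added after seeing the data.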

Additional observations from a re-analysis of the deposited data

How the results depend on the processing

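The 7 probe sets of SLC11A2, SLC39A14 and ACO1 kept their direction in all 98 values under alternatives and were called in 68. The test mattered most. Limma without the mean-variance trend called 0 of the 26 probe sets (9 higher and 0 lower at an unadjusted p under 0.05), 457 of all probe sets and 1 pathway gene (1 higher, 0 lower), and the methods' t-test called 0 (8 higher and 0 lower unadjusted), 1241 and 3 (2 higher, 1 lower). The adjusted p values of the 4 SLC11A2 probe sets were 0.0568 to 0.106 without the trend. Without centring 17 pathway genes were higher. When 1 array was left out, 3 to 8 of the 26 probe sets were called, all higher (0 lower), with 4 without spheroid 1, spheroid 3 or monolayer 2, 3 without monolayer 3 and 8 without monolayer 1. Calls over all probe sets were then 2438 to 6577 and over the pathway genes 7 to 21, with 4 to 15 higher and 2 to 6 lower. Without both arrays numbered 1, chosen after seeing the data, 8 of the 26 probe sets, 6629 of all and 21 pathway genes were called, and ACO1 207071_s_at was not (0.72, adjusted p = 0.0629). With a floor at the 20th percentile 6 of the 26 were called, without ACO1 207071_s_at (adjusted p = 0.0514).

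The replicate numbers were not taken as pairs, since same-numbered arrays correlated at 0.395, 0.0820 and 0.197 and 3 arrays, spheroid 2, monolayer 2 and monolayer 3, correlated best with an array of another number. Both arrays numbered 1 did correlate best with each other, and at -0.373 to -0.217 with the arrays of the other group under another number. The fit with the replicate number as a block called 7 of the 26 probe sets, 6133 of all and 20 pathway genes (12 higher, 8 lower).

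Of 256 values of the other 19 probe sets, 14 reversed, and the cause was not tested. TFRC 208691_at turned to 0.032 without both arrays numbered 1 and lay at -0.33 to -0.0021 with 1 array left out. TFRC 237214_at ranged over -0.91 to 0.71 with 1 array left out, turning without spheroid 3 (0.49) and monolayer 3 (0.71). SLC40A1 233123_at turned to 0.020 without centring and 0.10 without both arrays numbered 1 and ranged over -0.28 to 0.047, turning without spheroid 1. STEAP4 225987_at ranged over -0.17 to 1.23, turning without monolayer 3. CP 227253_at turned to -0.013 after quantile normalization and -0.50 without both arrays numbered 1 and ranged over -0.57 to 0.83, turning without spheroid 1 (-0.53), spheroid 3 (-0.21) and monolayer 3 (-0.57). HAMP turned to -0.020 without both arrays numbered 1 and ranged over -0.18 to 0.27, turning without monolayer 1. Of 364 values of 26 listed genes 1 reversed, HMOX1 without monolayer 1, in a range of -0.16 to 1.01.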
